A study of Mus musculus with 22 samples.

Results

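The let-7 family was measured in primary mouse hepatocytes, liver parenchymal cells taken from C57Bl6 mice and kept in culture, that had been exposed to cyclosporin A or to its solvent. Its members were the 9 entries of the array named mmu-let-7a-5p, mmu-let-7b-5p, mmu-let-7c-5p, mmu-let-7d-5p, mmu-let-7e-5p, mmu-let-7f-5p, mmu-let-7g-5p, mmu-let-7i-5p and mmu-miR-98-5p, out of 1247 mouse microRNA entries in all, of which 289 were tested. Cyclosporin A (CsA), an immunosuppressant that inhibits calcineurin and is known for cholestatic liver injury, was given at 10 or 50 µM for 24 or 48 h, and control wells received 0.5% dimethyl sulfoxide (DMSO). Under the names of the array files there were 3 arrays of 10 µM and 2 of 50 µM CsA at 24 h, 3 of each dose at 48 h, and 5 DMSO arrays at 24 h and 6 at 48 h, 22 in all. The labels call these biological replicates and number them by experiment, 1 to 3. Each array, DMSO arrays included, also carries a tag for the series of 10 or of 50 µM. The DMSO arrays of both series were pooled here as 1 control group per time. The sources used here do not say whether both DMSO wells of an experiment and time came from separate animals. The treatment text of the labels speaks of HepG2 cells, whereas every other label names primary mouse hepatocytes.

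MicroRNAs guide the silencing complex to messenger RNAs by pairing of their seed, bases 2 to 8 from the 5′ end, with sites that lie mostly in 3′ untranslated regions. The let-7 microRNAs are abundant in differentiated tissues, the adult liver among them, and are known for repressing growth genes such as Lin28, Hmga2, Igf2bp and Ras family members. Lin28 proteins in turn block the maturation of let-7 precursors. The family is encoded at several loci, some shared with other microRNAs, and miR-98 belongs to it by sequence although it carries another name.

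The 9 mature sequences are shown because every member has the same seed, so that members can be told apart only by bases outside it. The sequences were taken from RefSeq for build GRCm38.p6, in which all 9 names were matched, and the seed is in capitals.
let-7a-5p: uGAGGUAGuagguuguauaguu
let-7b-5p: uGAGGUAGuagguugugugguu
let-7c-5p: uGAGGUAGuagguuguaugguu
let-7d-5p: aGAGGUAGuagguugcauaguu
let-7e-5p: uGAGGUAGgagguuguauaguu
let-7f-5p: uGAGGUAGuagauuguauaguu
let-7g-5p: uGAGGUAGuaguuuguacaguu
let-7i-5p: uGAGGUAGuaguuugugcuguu
miR-98-5p: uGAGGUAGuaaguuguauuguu

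All 9 were 22 bases long, and any pair of them differed at 1 to 6 positions. Counted from 1 at the 5′ end and with let-7a-5p as the reference, let-7c-5p differed by A19G, let-7e-5p by U9G and let-7f-5p by G12A. let-7b-5p differed by A17G and A19G, let-7d-5p by U1A and U16C, let-7g-5p by G12U and U18C, and miR-98-5p by G11A and A19U. let-7i-5p stood farthest from the reference, with G12U, A17G, U18C and A19U. How far a probe for a given member also bound a close relative was not tested.

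The table of that build listed 5p arms at 11 loci on 7 chromosomes, let-7a-2 not among them. let-7d, let-7f-1 and let-7a-1 lay together on the minus strand of chromosome 13, at chr13:48536078-48536099, chr13:48537889-48537910 and chr13:48538239-48538260. let-7c-2 (chr15:85706616-85706637) and let-7b (chr15:85707325-85707346) were 688 bases apart, and let-7f-2 and miR-98 were 855 bases apart on chromosome X. let-7e (chr17:17830366-17830387, plus strand) lay between miR-99b-5p, 151 bases upstream, and miR-125a-5p, 430 bases downstream, and let-7c-1 on chromosome 16 lay 711 bases from miR-99a-5p. let-7g lay on chromosome 9 and let-7i on chromosome 10, with no other member or partner named here within 10000 bases.

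Each array carried 49880 spots for microRNAs, 3105 probes in all. Every value below is a log2 scaled intensity: the processed signal of a probe divided by the 75th percentile of the 281 probes that stood well above background on all 22 arrays, with a floor at 0.0471 of that percentile, -4.41 on the log2 scale. That percentile ranged from 188 to 605 intensity units between arrays, and 201 to 400 microRNAs were detected per array. No spot was saturated. The names of the doses were in conflict: of the 22 columns of the authors' value table, 16 held an array filed under another sample name, 8 of them CsA arrays of the other dose and 8 DMSO arrays of another DMSO name. These were all the arrays of experiments 2 and 3 and none of experiment 1. The DMSO arrays were exchanged between the series of the 2 doses. All 22 arrays kept their treatment, time and experiment under either naming, so comparisons with both doses pooled are the same under both, and those between doses are given under each. The 4 hepatocyte microRNAs, miR-122-5p, miR-192-5p, miR-194-5p and miR-148a-3p, were well above background on all 22 arrays. Of the markers of other cells, 1 of 5 leukocyte and macrophage entries (miR-155-5p) and 1 of 2 endothelial entries (miR-126-3p) were measurable, and none of the 4 mesenchymal entries on the array, the 2 erythroid or the 5 entries of other epithelia rose above background on any array.

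All 9 let-7 members were well above background on all 22 arrays. Each had 2 probes, of which the brighter was used, and the values of both probes correlated over the arrays with r from 0.967 to 0.992. Together the 9 members made up 2.44% to 8.03% of the summed signal of all microRNA entries, with a mean of 4.64%. The 11 opposite, 3p arms of let-7 and miR-98 hairpins on the array (let-7a-2-3p included), which are usually degraded once the mature strand is loaded, and the entries let-7j and let-7k were below background on every array.

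The levels of single members spread widely among arrays of 1 group. Over the 22 arrays mmu-let-7a-5p ranged from 1.89 to 2.98 with a median of 2.36, and let-7f-5p, encoded in the chromosome 13 and X clusters, from 1.98 to 3.39 with a median of 2.61. let-7b-5p ranged from 1.04 to 1.78, let-7c-5p from 1.19 to 2.02, let-7d-5p from 0.66 to 1.72 and let-7g-5p from 0.83 to 1.77. For each of these 6 members the 4 groups overlapped in every pooled comparison. mmu-let-7i-5p ranged from -1.19 to 0.28, mmu-let-7e-5p from -3.40 to -1.30 and mmu-miR-98-5p from -3.62 to -1.66. Levels of different probes are not comparable with each other, so no order among the members is given.

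**Figure D1:**
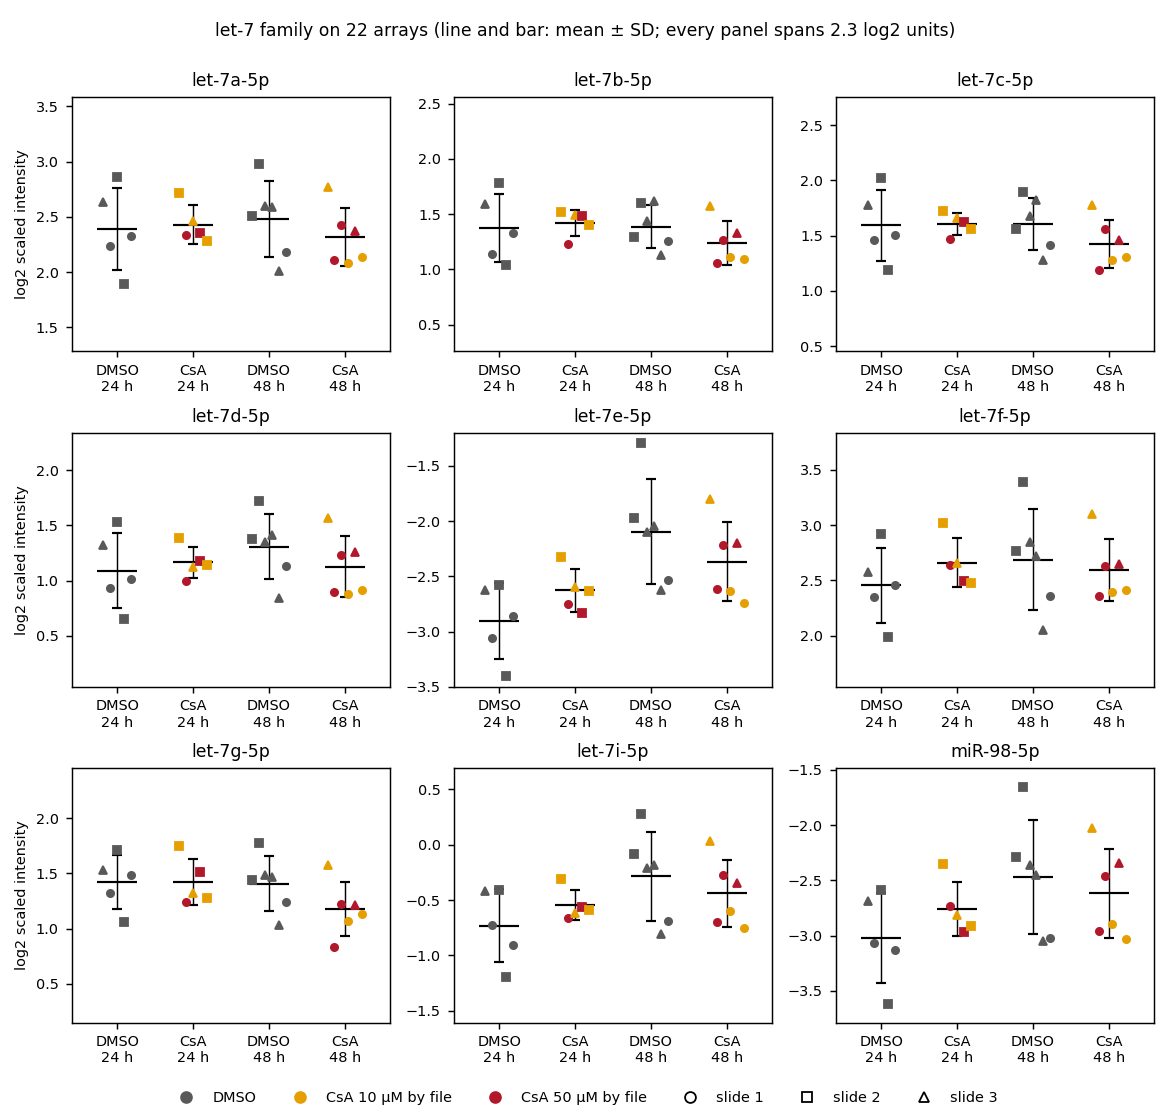
Log2 scaled intensity (y axis) of each of the 9 let-7 members on the 22 arrays, by treatment and time (x axis). Points are arrays, coloured by treatment and by the dose named in the array files, with the slide as the marker shape; the line and bar give the mean ± SD of 5, 5, 6 and 6 arrays. The groups overlap in every panel, and the clearest rise of a mean is that of let-7e-5p from DMSO at 24 h (-2.90) to DMSO at 48 h (-2.10).

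The members rose and fell together from array to array. Among the 36 pairs of members, r over the 22 arrays ran from 0.50 to 0.98 with a median of 0.86, and within the 4 groups, after the group means were taken off, from 0.79 to 0.98. These points share the array and its scaling. The mean of the 9 members ran from -0.04 on DMSO replicate 5 at 24 h to 1.19 on DMSO replicate 2 at 48 h. That mean went along with the array's own 75th percentile, by which it is divided, with r = -0.54 and rho = -0.75 over the 22 arrays, and its part in the shared movement was not tested. The 5 tested microRNAs whose values followed the centred family mean most closely were miR-350-3p (r = 0.91), miR-34a-5p (0.91), miR-140-3p (0.91), miR-331-3p (0.90) and miR-93-5p (0.90). Of the 280 tested microRNAs outside the family 28 had an r over 0.8, and the median r was -0.30.

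The first comparison asked what CsA did to the family at 24 h. Both doses pooled, no member passed the test (limma, Benjamini-Hochberg adjusted over 289 microRNAs; lowest adjusted p = 0.893), and none of the 289 did (0%), with 19 at an unadjusted p under 0.05. The median log2 change of the members was 0.08, beside 0.05 over all 289. The changes ran from -0.00 for let-7g-5p to 0.28 ± 0.22 (SE, 5 arrays against 5) for let-7e-5p, which is 1.21-fold. For let-7a-5p the 95% interval of the difference ran from -0.35 to 0.43. By experiment the median over the members was 0.10, -0.10 and 0.27 in experiments 1, 2 and 3, so the experiments did not share a direction.

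At 48 h the same comparison gave lower means with CsA for all 9 members, none of which passed the test. The log2 changes ran from -0.27 ± 0.21 for let-7e-5p to -0.10 ± 0.19 for let-7f-5p (SE, 6 arrays against 6), with a median of -0.16 beside 0.10 over all 289 microRNAs. let-7g-5p had the lowest adjusted p of the members (0.280, limma, log2 change -0.23 ± 0.14). No member was called, against 3 of 289 (1.04%) in all, 1 higher (0.346%) and 2 lower (0.692%), and no member separated the groups, against 1.38% in all. let-7g-5p was 0.83 to 1.57 with a median of 1.18 on the 6 CsA arrays and 1.03 to 1.77 with a median of 1.45 on the 6 DMSO arrays. The CsA array of experiment 1 filed as 10 µM held the highest CsA value of all 9 members at 48 h and lay within the DMSO range for each.

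The lower family values at 48 h were not the same in every experiment or on every slide. In bulk RNA scaled to each array's own percentile, a smaller share of cells with let-7 and less let-7 per cell cannot be told apart. In experiments 1 and 2 all 9 members were lower with CsA, with medians of -0.35 and -0.33, and in experiment 3 all 9 were higher, with a median of 0.10 (2 arrays against 2 in each). The array slides held the groups unevenly: 4 of 6 CsA arrays at 48 h lay on slide 1 and none on slide 2, whereas the 6 DMSO arrays lay 1, 2 and 3 on slides 1, 2 and 3. The mean of the family on slide 1 was 0.32, 0.42, 0.37 and 0.35 for DMSO and CsA at 24 h and DMSO and CsA at 48 h. On slide 2 the 2 DMSO arrays at 48 h averaged 0.96. With the slide as a block the median change at 48 h was -0.03 (6 members lower, 3 higher), and on slide 3, the other slide with both groups, all 9 members were higher with CsA (median 0.21, 2 arrays against 3).

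**Figure D2:**
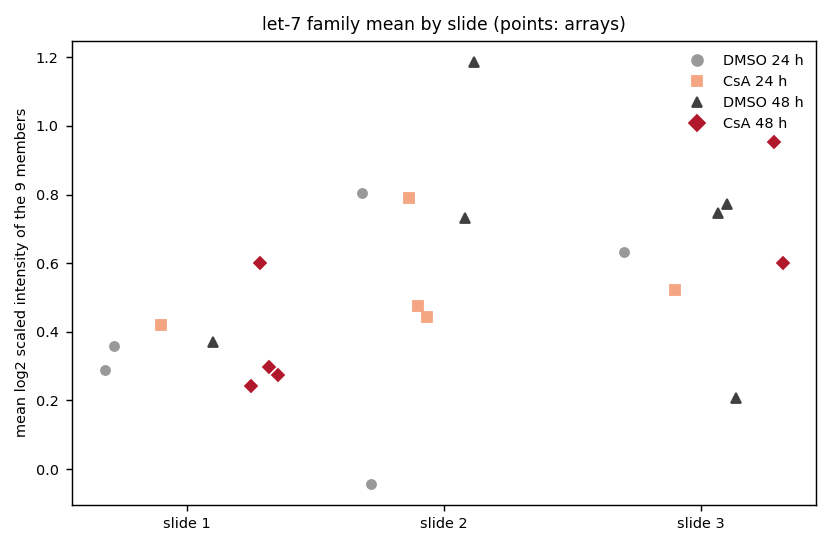
Mean log2 scaled intensity of the 9 members (y axis) on each array, by slide (x axis), with treatment and time as marker and colour. Of the 6 CsA arrays at 48 h, 4 lie on slide 1 and 2 on slide 3, and the highest mean, 1.19, is a DMSO array at 48 h on slide 2.

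Culture time without the compound gave the largest difference of any member, in let-7e-5p. let-7e-5p was -2.62, -3.05, -2.58, -3.40 and -2.86 on the 5 DMSO arrays at 24 h, and -2.62 to -1.30 with a median of -2.08 on the 6 DMSO arrays at 48 h. Replicate 5 at 48 h, an array of experiment 3 at -2.62, lay within the range at 24 h, and the other 5 arrays at 48 h lay above it. The log2 change was 0.81 ± 0.22 (SE), a 1.75-fold higher level at 48 h, with an adjusted p of 0.128. Whether the experiment numbers pair the arrays of this comparison was not settled. With the experiment as a block let-7e-5p passed the test (log2 change 0.75 ± 0.18, limma adjusted p = 0.0288), as 1 of 10 microRNAs in all. It was higher at 48 h in each experiment, by 0.99, 0.74 and 0.56. Within slides 1, 2 and 3 the difference was 0.43, 1.36 and 0.36. Without DMSO replicate 5 at 48 h it also passed the test (0.91, limma adjusted p = 0.0398). Over all settings and arrays left out, the change ran from 0.65 to 0.91 and the adjusted p from 0.0288 to 0.702.

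let-7i-5p and miR-98-5p lay in the same direction without passing the test in any setting. let-7i-5p was -0.42, -0.73, -0.41, -1.19 and -0.91 on the DMSO arrays at 24 h and -0.81 to 0.28 with a median of -0.20 at 48 h. Its log2 change was 0.45 ± 0.19 (SE), 1.36-fold, with an unadjusted p of 0.0271 and a limma adjusted p of 0.313. miR-98-5p was -2.69, -3.07, -2.59, -3.62 and -3.13 at 24 h and -3.04 to -1.66 with a median of -2.40 at 48 h. Its log2 change was 0.55 ± 0.24 (SE), 1.46-fold, with an unadjusted p of 0.0347 and a limma adjusted p of 0.331. Both groups overlapped for both members, and both members were higher at 48 h in each experiment. Within slides 1, 2 and 3 the difference was 0.13, 0.90 and 0.02 for let-7i-5p. For miR-98-5p it was 0.08, 1.13 and 0.07, so for both members it was largest on slide 2. The lowest adjusted p was 0.139 for let-7i-5p and 0.176 for miR-98-5p over the settings tried.

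The other 6 members gave log2 changes between -0.02 (let-7g-5p) and 0.23 (let-7f-5p) with time in DMSO, at adjusted p from 0.716 to 0.998. The median over the 9 was 0.22, beside 0.04 over all 289 microRNAs. Within slides 1, 2 and 3 the median over the members was 0.02, 0.46 and -0.12, and with the slide as a block 0.16. By limma none of the 289 was called in this comparison without the block (0%), and 38 of 289 (13.1%), among them 3 of the 9 members, had an unadjusted p under 0.05.

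**Figure D3:**
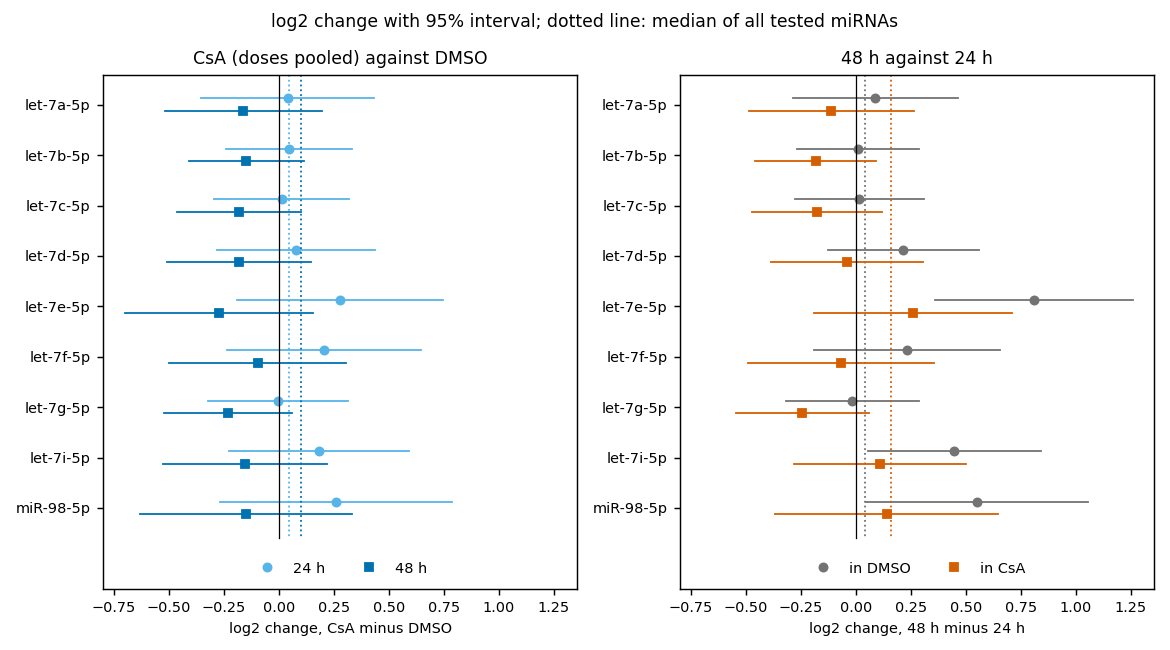
Log2 change (x axis) of each member (y axis) with its 95% interval from limma; the left panel plots CsA minus DMSO at 24 and 48 h with doses pooled, the right panel 48 h minus 24 h in DMSO and in CsA. Dotted lines are the medians of all 289 tested microRNAs, and in the right panel the interval of let-7e-5p in DMSO runs from 0.36 to 1.26.

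In CsA no member passed the test for time either. let-7a-5p (-0.11), let-7b-5p (-0.18) and let-7c-5p (-0.18) had lower means at 48 h than at 24 h there, and let-7i-5p (0.11) and miR-98-5p (0.14) higher ones. let-7e-5p was -2.32, -2.75, -2.59, -2.83 and -2.63 on the 5 CsA arrays at 24 h and -2.74 to -1.80 with a median of -2.41 on the 6 at 48 h, a log2 change of 0.26 ± 0.22 (SE; limma adjusted p = 0.491). The groups overlapped, with 3 of 6 arrays at 48 h above every array at 24 h. let-7g-5p had the lowest adjusted p (0.364, log2 change -0.24 ± 0.15). The median over the members was -0.07, beside 0.16 over all 289, of which 1 was called (0.346%).

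The difference between the CsA effects at both times was tested directly. It was negative for all 9 members, with a median of -0.26, and was largest for let-7e-5p at -0.55 ± 0.30 (SE; unadjusted p = 0.0854, limma adjusted p = 0.796). None of the 289 microRNAs was called (0%), and 8 (2.77%) had an unadjusted p under 0.05. With the slide as a block the median over the members was -0.07. Time courses in DMSO and in CsA were therefore not shown to differ for any member.

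Because the members moved together, each was also read against the family mean of its own array, a description from which the array's overall let-7 signal drops out. In DMSO, let-7e-5p minus the family mean was higher by 0.55 at 48 h than at 24 h, miR-98-5p by 0.29 and let-7i-5p by 0.19. Deviations of the 9 members from their own mean cancel out on each array, so rises of some members force falls of others on this scale. Against the family mean let-7g-5p was lower by 0.28, let-7b-5p by 0.25, let-7c-5p by 0.25 and let-7a-5p by 0.17. Without the subtraction their DMSO means hardly differed between 24 and 48 h. They were 1.42 and 1.41 for let-7g-5p, 1.38 and 1.39 for let-7b-5p, 1.59 and 1.61 for let-7c-5p, and 2.39 and 2.48 for let-7a-5p. The groups at both times did not overlap for let-7a-5p, let-7c-5p, let-7e-5p and let-7g-5p, against 6.23% of all 289 microRNAs read against the same mean. The members make up that mean and move with it, so subtracting it narrows their spread. The other tested microRNAs had a median r of -0.30 with it. This share, and the one for CsA below, is therefore no like-for-like background for the members. let-7d-5p and let-7f-5p stayed within 0.05 of it. In CsA the sign of each of the 9 differences was the same, with differences of 0.29 for let-7e-5p, 0.17 for miR-98-5p and 0.15 for let-7i-5p, and of -0.21 for let-7g-5p. There let-7e-5p and let-7i-5p did not overlap between times, against 5.88% of all. In each of the other 5 scalings or value sets tried (of which another percentile leaves these differences as they are by construction), let-7e-5p, let-7i-5p and miR-98-5p were also higher against the family mean at 48 h in DMSO, and let-7a-5p, let-7b-5p, let-7c-5p and let-7g-5p lower. let-7f-5p turned sign, to 0.10 under quantile normalisation. In CsA the signs were less stable: with the authors' values let-7b-5p (0.02), let-7c-5p (0.08) and let-7d-5p (0.11) turned positive and let-7i-5p was at 0.00, and with the mean of the probes let-7f-5p turned to 0.01. The 3 members that gained had group means below the 75th percentile of the array (below 0 on this scale) in all 4 groups and the other 6 had them above it, and the part of signal strength in the difference was not tested. Between CsA and DMSO at 24 h only let-7c-5p did not overlap against the family mean. It was 0.933 to 1.144 in CsA and 1.148 to 1.235 in DMSO (difference -0.11), against 2.42% of all. At 48 h every member overlapped between CsA and DMSO, against 2.08% of all that did not. These shares are no like-for-like background either.

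**Figure D4:**
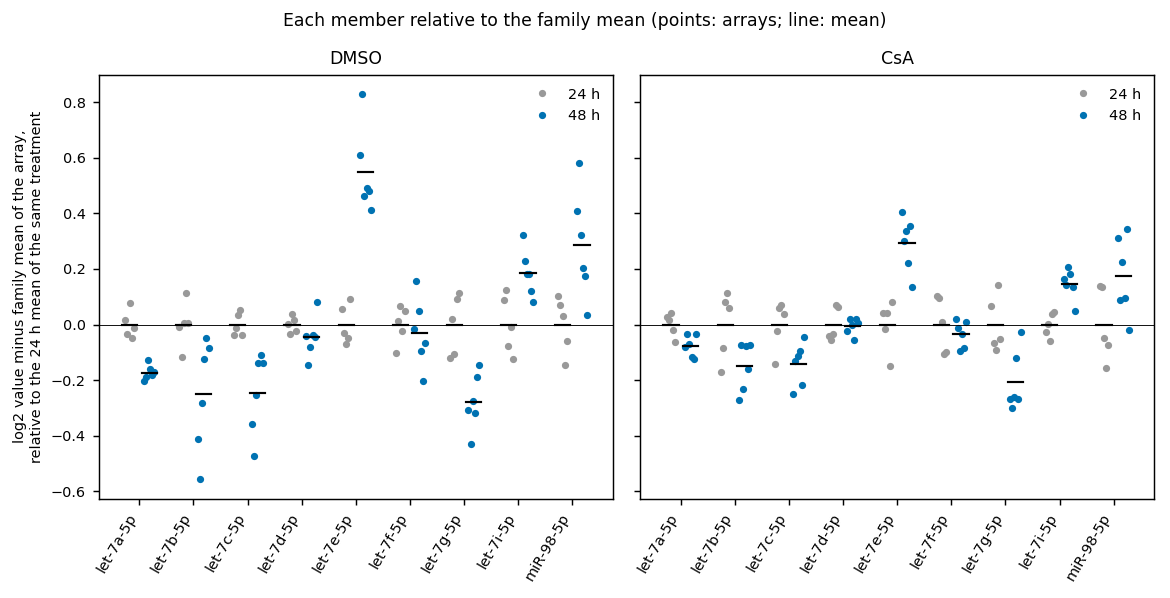
Each member's log2 scaled intensity minus the mean of the 9 members on the same array (y axis), set to the 24 h mean of the same treatment, for DMSO (left) and CsA (right) by member (x axis). Points are arrays and lines are means; in DMSO let-7e-5p lies 0.55 higher at 48 h and let-7g-5p 0.28 lower.

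The genomic neighbours of let-7 loci were read in the same arrays from a list of 5 microRNAs, of which 4 were tested and miR-100-5p was below background throughout. The neighbours of let-7e on chromosome 17, miR-99b-5p and miR-125a-5p, are usually taken to share its primary transcript. miR-125a-5p was -3.32, -3.59, -3.45, -4.13 and -3.69 on the DMSO arrays at 24 h and -3.63 to -1.91 with a median of -2.69 at 48 h, of which 5 of 6 lay above every array at 24 h. Its log2 change was 0.93 ± 0.27 (SE), 1.90-fold, with a limma adjusted p of 0.133, and 0.86 (limma adjusted p = 0.0423) with the experiment as a block. miR-99b-5p was not well above background on any of the 5 DMSO arrays at 24 h and was so on 5 of 6 at 48 h, where it ran from -4.18 to -2.80. On the scale used here it was at least 1.79-fold higher at 48 h by the bound that the dimmest measurable probes allow. The mean at 48 h in that bound includes the 1 array not well above background. Over the other settings its log2 change ran from 0.58 to 2.31. Its limma adjusted p was 0.0575, and 0.0184 with the experiment as a block. All 5 DMSO arrays at 24 h were held at the floor, with an SD of 0. The p-values and calls of miR-99b-5p in this comparison, here and below, therefore rest in part on values without spread. With the experiment as a block, let-7e-5p, miR-99b-5p and miR-125a-5p were thus all called higher at 48 h in DMSO. With the slide as a block none of them was, at log2 changes of 0.74, 0.91 and 0.88 and limma adjusted p of 0.187, 0.0501 and 0.187. The call of miR-99b-5p without the block depended on the arrays used: it was made without DMSO replicate 1 at 24 h (limma adjusted p = 0.0393), replicate 5 at 48 h (0.00516) or replicate 6 at 48 h (0.0294). That of miR-125a-5p was made without replicate 5 at 48 h (1.11, limma adjusted p = 0.0398).

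The other 2 tested microRNAs of this list gave small differences with time in DMSO. miR-99a-5p, next to let-7c-1, gave a log2 change of -0.04 ± 0.17 and miR-125b-5p, a close relative of miR-125a-5p, of -0.07 ± 0.15 (SE; limma adjusted p = 0.989 for both). Over the 22 arrays, read against the family mean, let-7e-5p had r = 0.77 with miR-99b-5p, 0.68 with miR-125a-5p, -0.86 with miR-99a-5p and -0.81 with miR-125b-5p. let-7c-5p had r = 0.81 with miR-99a-5p and 0.76 with miR-125b-5p on the same scale, and -0.61 with miR-99b-5p and miR-125a-5p. Members at other loci gave similar values: let-7i-5p had r = 0.71 with miR-99b-5p and 0.59 with miR-125a-5p. With miR-99a-5p let-7a-5p had 0.77 and let-7g-5p 0.74. Without the subtraction the negative values were positive. let-7e-5p then had 0.46 with miR-99a-5p and 0.30 with miR-125b-5p, and let-7c-5p 0.34 with miR-99b-5p and 0.62 with miR-125a-5p. These points share the subtracted mean and the array.

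CsA against DMSO at 48 h gave lower means of let-7e-5p and of both its chromosome 17 neighbours, none of which passed the test without a block. This direction was not particular to that locus. miR-99a-5p (mean -2.69 against -2.49), miR-125b-5p (-1.01 against -0.93) and all 9 members also had lower means with CsA. miR-125a-5p was -4.29 to -2.74 with a median of -3.40 on the 6 CsA arrays, against a median of -2.69 in DMSO, and the groups overlapped. Its log2 change was -0.73 ± 0.26 (SE; limma adjusted p = 0.106), and with the experiment as a block the limma adjusted p was 0.0477. With the slide as a block it was -0.55 at a limma adjusted p of 0.423. It also passed the test without the 10 µM CsA array of experiment 1 at 48 h (-0.87, limma adjusted p = 0.0368) and without DMSO replicate 5 at 48 h (-0.92, limma adjusted p = 0.0186). miR-99b-5p was well above background on 3 of the 6 CsA and 5 of the 6 DMSO arrays at 48 h, so its difference rests in part on values at or near the floor. Its fitted log2 difference was -0.47 ± 0.19 (SE; limma adjusted p = 0.144, 0.0705 with the experiment block and 0.482 with the slide block), and it passed the test without DMSO replicate 5 at 48 h (-0.61, limma adjusted p = 0.0264). let-7e-5p, at -0.27, did not pass the test with either block or with any array left out. The experiment block raised the number called in this comparison from 3 to 24 of 289, no let-7 member among them. miR-202-3p, whose bases 2 to 8 differ from those of let-7a-5p only by G8U, gave 0.14 ± 0.18 at 48 h and -0.08 ± 0.18 with time in DMSO (SE; limma adjusted p = 0.667 and 0.989).

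The doses were compared under each naming. Under the names of the array files no member passed the test at either dose and time. At 24 h the median over the members was 0.13 for 10 µM and 0.00 for 50 µM against DMSO, where none of 289 was called at either dose (0%), and at 48 h it was -0.15 for 10 µM and -0.17 for 50 µM, where 18 (6.23%; 16 higher, 5.54%, and 2 lower, 0.692%) and 1 (0.346%) were called. Over all 289 the medians for 10 and 50 µM against DMSO were 0.10 and -0.01 at 24 h, and 0.12 and 0.05 at 48 h. For 50 against 10 µM the median over the members was -0.13 at 24 h and -0.03 at 48 h (0% called at both). It was -0.13 and -0.08 over all 289. The groups of 50 and 10 µM at 24 h did not overlap for 1 member, let-7e-5p, against 6.57% of all.

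Under the names of the value table the 3 arrays of 50 µM at 48 h held the lowest 3 of the 6 CsA values of that time for every member. let-7e-5p was -2.74, -2.63 and -2.61 on those arrays and -2.22, -2.20 and -1.80 on the 3 of 10 µM. miR-98-5p was -3.03, -2.96 and -2.89 at 50 µM and -2.46, -2.34 and -2.02 at 10 µM. The doses did not overlap for any of the 9 members, a pattern that 54.7% of all 289 microRNAs shared in this comparison. The log2 change of 50 against 10 µM ran from -0.68 ± 0.30 for miR-98-5p (SE; limma adjusted p = 0.0969) to -0.30 ± 0.17 for let-7b-5p, with a median of -0.41 beside 0.12 over all, and no member was called against 82 of 289 (28.4%), 61 higher (21.1%) and 21 lower (7.27%). Against DMSO, 50 µM at 48 h gave a median of -0.40 (range -0.57 for let-7e-5p to -0.30 for let-7b-5p), beside 0.15 over all. let-7g-5p had the lowest adjusted p there (-0.40 ± 0.16, limma adjusted p = 0.0574), and 109 of 289 (37.7%) were called in all, 79 higher (27.3%) and 30 lower (10.4%). Only let-7b-5p separated the groups, against 26.6% of all.

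MicroRNAs of other lists moved with the same arrays. In 50 µM CsA against DMSO at 48 h under that naming, miR-125a-5p, the downstream neighbour of let-7e, gave a log2 change of -1.23 ± 0.27 (SE; limma adjusted p = 0.00139), at -4.29 to -3.66 against -3.63 to -1.91, with no overlap. miR-99b-5p, well above background on 1 of the 3 and 5 of the 6 arrays, was also called lower (limma adjusted p = 0.0125), so 2 of 4 tested neighbours were called. Of the 4 hepatocyte microRNAs 1 was called lower, miR-192-5p (-0.47 ± 0.14, limma adjusted p = 0.0150), and their summed scaled level was 47.6 to 50.7 at 50 µM and 44.3 to 56.2 in DMSO. The leukocyte entry miR-155-5p was called higher (0.73 ± 0.17, limma adjusted p = 0.00293), from -3.57 to -3.37 against -4.41 to -3.77, well above background on 2 of the 3 and 4 of the 6 arrays. The other 4 leukocyte entries were below background on every array, and the summed level of the list was 0.273 to 0.285 against 0.236 to 0.262. The endothelial sum was 0.129 to 0.158 at 50 µM and 0.101 to 0.203 in DMSO, with no call. The part of these movements in the let-7 differences was not tested.

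The members at 10 µM stayed near DMSO under that naming. Their median was 0.05 at 48 h, with 3 of 289 called (1.04%; 2 higher, 0.692%, and 1 lower, 0.346%), and 0.10 at 24 h (0% called). At 24 h 50 µM gave a median of 0.07, with 11 of 289 called (3.81%), and 50 against 10 µM gave -0.09, with 1 called (0.346%). Over all 289 the medians for 10 µM were 0.03 at 48 h and 0 at 24 h. For 50 µM and for 50 against 10 µM at 24 h they were 0.11 and 0.06. All 3 arrays named 50 µM at 48 h by the value table lay on slide 1, with 1 of the 3 named 10 µM and 1 DMSO array. On that slide 50 against 10 µM had a median of -0.32 with all 9 members lower (3 arrays against 1). 50 µM against DMSO had a median of -0.13 with 6 lower and 3 higher (3 arrays against 1). With the slide as a block the medians were -0.32 and -0.22, at limma adjusted p of at least 0.269 and 0.344. The sources used here do not say which naming is right, so the difference between doses at 48 h cannot be told apart from the naming.

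**Figure D5:**
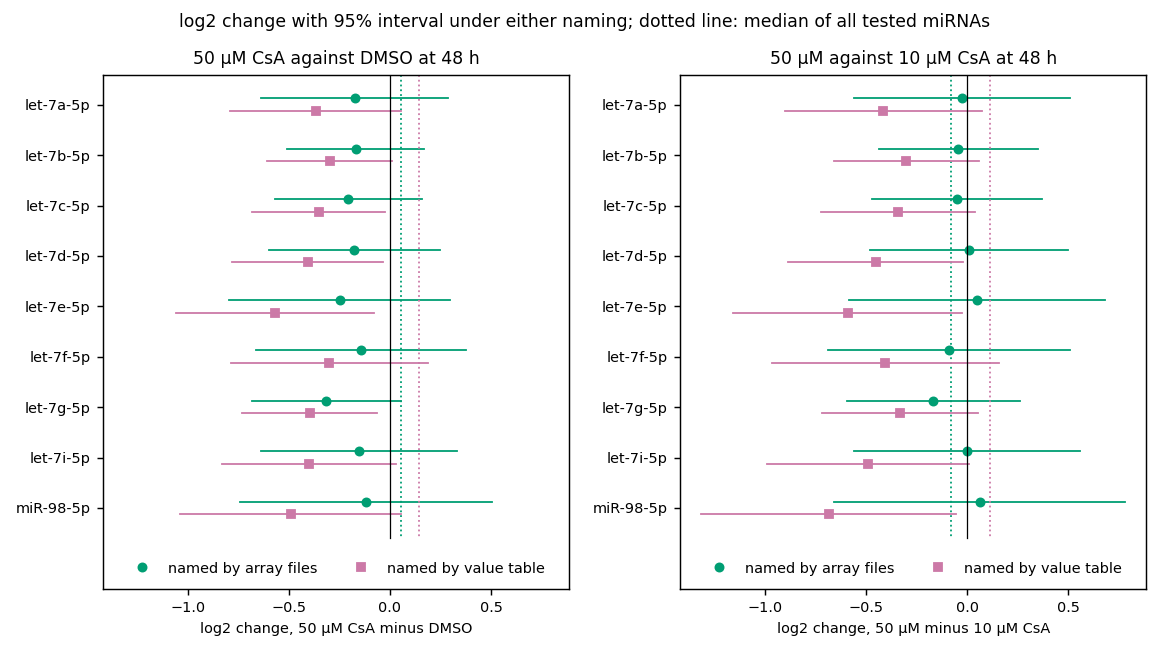
Log2 change (x axis) of each member (y axis) with its 95% interval at 48 h, for 50 µM CsA minus DMSO (left) and 50 minus 10 µM CsA (right). Circles use the sample names of the array files and squares those of the value table, and dotted lines are the medians of all 289 tested microRNAs; between doses the median over the members is -0.03 under the file names and -0.41 under those of the table.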

How the data were processed

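Total RNA from 22 cultures was hybridised to 1-colour Agilent mouse microRNA arrays. Per the file headers, the authors read the spot intensities with Agilent's Feature Extraction software, version 10.7.3.1, which gives a background-corrected processed signal. The authors' deposited value table holds log2 values, for which the submitters' processing notes name R 2.15.2; quantile normalisation of the total gene signals after a minimum of 0.5 rebuilt all 22 columns to within 4.97e-14, which settled its scale and the array behind each column.

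Here, spots marked as outliers and control spots were left out, spots were averaged per probe (14 to 20 for a member), each array was scaled to the 75th percentile of its 281 probes well above background throughout, a floor of 0.0471 was set and log2 taken. The brightest probe stood for a microRNA, and 289 microRNAs well above background on at least 3 arrays were tested. limma 3.58.1 in R 4.3.3 was fitted over all arrays with 4 groups (doses pooled) or 6, with Benjamini-Hochberg adjustment over the 289 and a threshold of 0.05; the script was tested on simulated data. Precision is limited by the number of arrays.

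The members, gene lists and rules were chosen with earlier results of these data known. Named were all 9 members, their opposite arms, 5 cluster partners, miR-202-3p and the 5 microRNAs most like the family mean. Pairing by experiment number was checked by correlating the deviations of an experiment's arrays from the group means. For time in DMSO r was 0.24, 0.20 and 0.44, and for time in CsA 0.50, 0.18 and 0.64. For CsA at 48 h it was 0.71, 0.39 and 0.77, and at 24 h 0.39, 0.05 and 0.30. Each r was taken over the 289 microRNAs of a few arrays, and the values for time in DMSO and CsA at 24 h overlapped. They therefore do not settle for which comparisons the numbers pair the arrays. The other 2 of the 24 arrays that the design text mentions were not analysed here.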

Additional observations from a re-analysis of the deposited data

Results flagged for a closer look

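Of 36 checks for an array far from the others of its group (9 members in 4 groups), 1 stood out: let-7i-5p on the 10 µM CsA array of experiment 1 at 24 h, at -0.31, where the other 4 CsA arrays at 24 h lay between -0.66 and -0.56. Its gap to the nearest array was 0.725 of the range of the group. Chance marks about 1 in 20 such groups.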

How the results depend on the processing

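The number of members called stayed at 0 in 10 of the 11 comparisons under all settings tried: 75th percentile over all probes, quantile normalisation, normexp background, the values of the value table, the mean of a microRNA's probes, no filter on dim probes, the slide as a block, the replicate block by experiment number, the names of the value table, and each array left out. The exception was time in DMSO, with 1 member (let-7e-5p) under the replicate block and 0 to 1 with an array left out. The replicate block changed no other call of a member. Scaling by the 75th percentile over all probes, which moved the median of all microRNAs for CsA at 48 h from 0.10 to -0.16, gave member medians of -0.58 for CsA at 48 h, -0.67 and -0.51 for 10 and 50 µM at 48 h, -0.41 for time in CsA and -0.67 for the difference between the CsA effects. With the names of the value table, the dose difference at 48 h (50 against 10 µM) was -0.41. Without a filter 344 microRNAs were tested; the other 903 lay at the floor on every array and were left out after a first fit with them gave calls from values without spread.
Signs of uncalled changes were not stable: of 99 member values, 21 turned sign under that percentile, 20 under quantile normalisation, 19 with the values of the value table, 26 with the slide block, 7 with the replicate block and 5 with the mean of probes, as did 16 of 54 under the other naming and 97 of 990 with an array left out. No member called in any setting turned sign. Settings for the neighbours, and arrays left out for the medians, were chosen after seeing the data. Each group's 2 to 6 arrays, and a family spread within groups of 0.29 (SD), limit what could be detected.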
